A study of Mus musculus with 4 samples.

Results

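The interferon response genes described here are 38 transcripts that cells make after they sense interferon, and they were followed through kidneys of male C57BL/6 mice that were 19 months old when treatment began. They were chosen by gene symbol from a list that was drawn up with earlier results of these data known. The symbols of all 38 matched a row among the 31054 features of the deposited count tables. Mice received BPTES, a small-molecule inhibitor of the glutaminase GLS1, or its vehicle DMSO for 1 month, and each group comprised 2 single-cell libraries, called replicates 1 and 2. Neither the dose nor the route is given in the sources used here. Every animal was aged and of the same sex and strain, and no young or untreated kidney was part of the comparison. Kidneys were dissociated with liberase, and each library was built on a 10x Genomics chip from 20000 sorted CD45-negative cells (tubule, vessel and stroma) mixed with 9000 CD45-positive cells (leukocytes). The comparison asks how the interferon response of each kidney cell type differs between BPTES and DMSO. The labels do not say that replicates came from separate animals, so p-values measure only the spread between these libraries, which may be technical.

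Type I and type III interferons bind receptors that activate JAK kinases. This leads to the complex ISGF3, which contains STAT2 and IRF9 and binds the interferon-stimulated response element (ISRE) in promoters, whereas type II interferon acts mainly through the gamma-activated sequence (GAS). The induced genes encode sensors of foreign nucleic acid, RNA-binding proteins, membrane and nucleotide effectors and GTPases that attack intracellular vacuoles, and several of them feed back on the pathway itself. In kidney, tubule epithelium, vessels and resident leukocytes can all mount this response.

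Promoter sequences of 27 of the 38 genes were found in the RefSeq table of build GRCm38.p6, which holds 250 bases before and 50 bases after each start site. The ISRE was searched as a pair of GAAA separated by 2 bases of any kind (a pair of TTTC on the other strand), and the GAS as TTC and GAA separated by 3 bases, which reads the same on both strands. An ISRE match lay in 17 of the 27 genes (63.0%) and in 3.99% of all 27025 genes of the table. A GAS match lay in 7 of the 27 (25.9%) and in 9.55% of all genes. The 10 genes with no ISRE match in this window were Oasl1, Oasl2, Irf7, Irf9, Ifit2, Cmpk2, Xaf1, Ifi47, Ifi44 and Ifi35. The 200 bases before the start site, 5′ to 3′ on the gene's strand, are shown for 6 genes that the results below turn on or, for Rsad2, that had a high level in endothelium, with ISRE matches in capitals.
Isg15: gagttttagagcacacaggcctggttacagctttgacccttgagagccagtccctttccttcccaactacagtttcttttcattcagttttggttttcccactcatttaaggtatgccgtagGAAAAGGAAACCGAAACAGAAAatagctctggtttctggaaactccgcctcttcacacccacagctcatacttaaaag
Ifit1: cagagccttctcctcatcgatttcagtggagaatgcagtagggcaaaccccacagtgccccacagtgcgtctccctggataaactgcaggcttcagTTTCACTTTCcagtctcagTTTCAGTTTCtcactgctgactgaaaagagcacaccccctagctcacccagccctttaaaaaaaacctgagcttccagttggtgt
Ifit3: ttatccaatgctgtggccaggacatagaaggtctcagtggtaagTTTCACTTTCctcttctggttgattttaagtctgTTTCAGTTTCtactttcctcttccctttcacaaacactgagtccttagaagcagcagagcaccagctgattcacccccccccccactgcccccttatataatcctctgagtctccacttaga
Ifit3b: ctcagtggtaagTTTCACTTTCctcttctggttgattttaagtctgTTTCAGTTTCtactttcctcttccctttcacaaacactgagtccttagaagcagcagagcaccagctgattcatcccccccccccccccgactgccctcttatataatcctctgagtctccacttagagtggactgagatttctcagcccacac
Gbp7: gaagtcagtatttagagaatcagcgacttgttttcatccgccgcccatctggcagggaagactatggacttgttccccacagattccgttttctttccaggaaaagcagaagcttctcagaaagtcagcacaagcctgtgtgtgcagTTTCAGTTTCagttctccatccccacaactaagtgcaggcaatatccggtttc
Rsad2: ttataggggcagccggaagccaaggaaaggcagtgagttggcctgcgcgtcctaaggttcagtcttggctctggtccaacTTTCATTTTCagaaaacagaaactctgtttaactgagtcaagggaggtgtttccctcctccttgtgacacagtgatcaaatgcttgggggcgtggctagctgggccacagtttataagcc

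The Isg15 window, chr4:156200819-156201018 on the minus strand, held 3 overlapping matches that began at positions -78, -72 and -66 from the start site. Ifit1, at chr19:34640689-34640888 on the plus strand, held 2 separate matches at -104 and -85. The windows of Ifit3 (chr19:34583329-34583528) and Ifit3b (chr19:34607757-34607956), neighbours of Ifit1 on the same strand, carried the same pair of matches at -156 and -122 and at -188 and -154. Gbp7 (chr3:142530136-142530335, plus strand) had 1 match at -53 and Rsad2 (chr12:26456453-26456652, minus strand) 1 match at -120. For Ifit3, Ifit3b and Gbp7 the first bases after the RefSeq start were not found near the start of a GENCODE transcript, so their positions depend on the RefSeq start site. A match describes the letters only and says nothing of binding in these kidneys. At the other end of the transcripts, where these 3' libraries count molecules, 90-base stretches shared with another gene made up 53.6% for Oas1a (shared with Oas1g), 15.7% for Trim30a (Trim30d) and 5.28% for Ifit3 (Ifit3b). How reads from those stretches were assigned is not given in the sources used here, so the counts of these 3 genes are uncertain.

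The BPTES libraries held 296360271 and 249881074 UMIs (unique molecular identifiers, each standing for 1 captured transcript) and the DMSO libraries 297947661 and 296928739. After filtering, 12076 and 10849 cells were left in the BPTES libraries against 12075 and 11738 in the DMSO libraries, and between 90 and 114 barcodes, at most 0.618% of a library, were shared by any pair of libraries. Clusters were named from marker genes, which gave 17 classes whose names stand for "like" the type named, and 5219 cells stayed unnamed. UMIs were summed per library and class. Levels are given as CPM, the UMIs of a gene per 1000000 UMIs of that sum after TMM scaling, and a gene is said to be called when edgeR's quasi-likelihood test gave an adjusted p of at most 0.05 within a class. A log2 fold change sets BPTES against DMSO, so that a negative value is lower with BPTES, and n is 2 libraries in each group throughout. Comparisons were made in the 8 classes with most cells: proximal tubule (21721 cells), T cells (3650), macrophages (3628), endothelium (3583), monocytes (1534), dendritic cells (1408), B cells (1242) and neutrophils (1066).

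Endothelium carried the highest level of the interferon response in these kidneys and the 5 tubule classes, by their means over the 4 libraries, the lowest. Summed over the 38 genes, endothelium reached 6105 and 4856 CPM in the BPTES libraries and 5500 and 5328 CPM in the DMSO libraries. Plasmacytoid dendritic cells (3916 to 4943 CPM, from 28 and 31 BPTES cells against 38 and 2 DMSO cells, the 2 cells giving the lowest value) came next, and their range overlapped that of endothelium. Macrophages (2707 to 3120 CPM) and monocytes (2238 to 2641 CPM) followed. Neutrophils, T cells, dendritic cells and fibroblasts overlapped one another between 1496 and 2499 CPM. Proximal tubule summed to 148 and 130 CPM under BPTES against 214 and 175 CPM under DMSO, a range that overlapped those of all 4 other tubule classes. Endothelium had the highest mean level of any class for 20 of the 38 genes, and plasmacytoid dendritic cells for 5. The pattern was not the same for each gene. Rsad2, which encodes viperin, an enzyme that makes an antiviral nucleotide, averaged 1119 CPM in endothelium against 132 CPM in neutrophils, the next class, and was higher in endothelium in every library. Ifi44, an interferon-induced antiviral protein, averaged 379 CPM in endothelium and 31.9 CPM in the next class. Mx1, which belongs to the dynamin-like GTPases, was instead highest in macrophages at 50.3 CPM and lay between 1.04 and 5.71 CPM in endothelium. Bst2, which encodes the virion tether tetherin, reached 2466 CPM in plasmacytoid dendritic cells and 543 CPM in endothelium. The mean sum of the 38 genes in plasmacytoid dendritic cells was 4376 CPM, so their rank rested largely on this 1 gene.

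**Figure D1:**
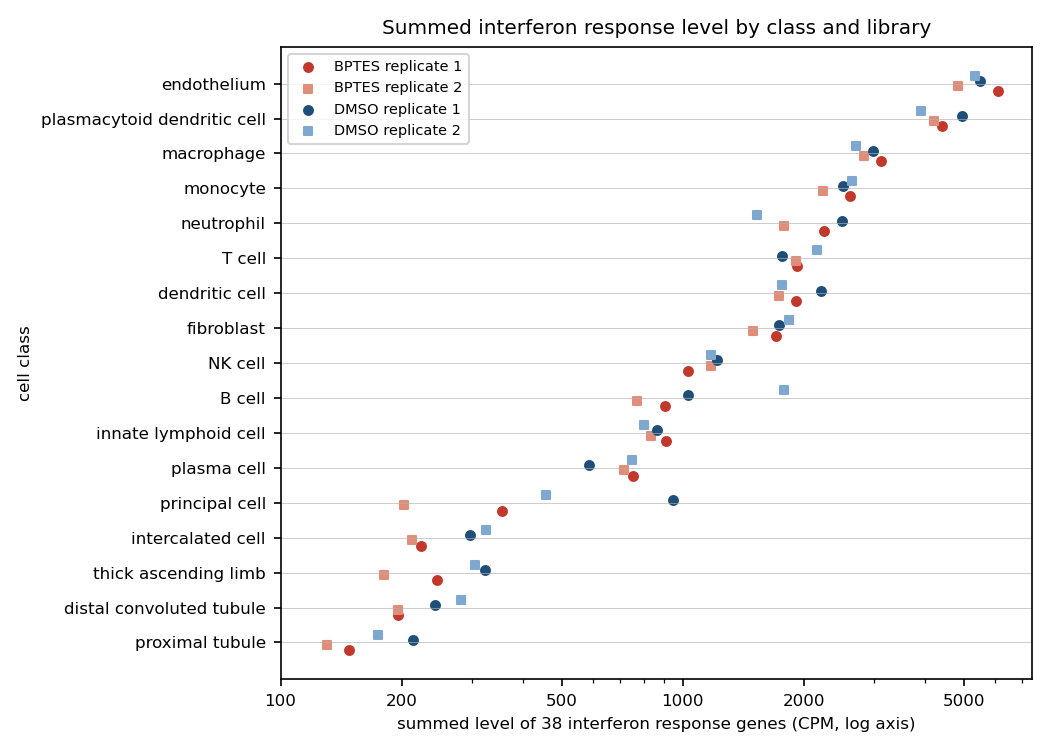
Summed level of the 38 interferon response genes (x axis, CPM, log axis) in 17 cell classes (y axis); each point is 1 library, with BPTES in red and DMSO in blue. Endothelium lies between 4856 and 6105 CPM and proximal tubule between 130 and 214 CPM; in the 5 tubule classes at the bottom, and in fibroblasts, NK cells and B cells, both BPTES libraries lie below both DMSO libraries.

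In proximal tubule, the epithelium that reabsorbs most of the filtrate, 2 of the 37 interferon response genes tested were called, Ifit1 and Oasl1, and both were lower under BPTES. Neither call held without a cluster of 68 cells described below, with predicted doublets kept or without BPTES replicate 2, and that of Oasl1 was also lost at a 25% mitochondrial limit. Ifit1 (ENSMUSG00000034459), whose product binds viral RNA, had 111 and 69 UMIs with BPTES against 314 and 224 UMIs with DMSO, or 0.890 and 0.732 against 2.61 and 2.11 CPM. It fell by 1.53 on the log2 scale (SE 0.21, edgeR adjusted p = 0.028). Oasl1 (ENSMUSG00000041827), an oligoadenylate synthetase-like protein that in mice limits Irf7 translation, had 137 and 93 UMIs with BPTES against 300 and 234 with DMSO, a fall of 1.17 on the log2 scale (SE 0.18, edgeR adjusted p = 0.035). For both genes the 2 BPTES libraries lay below the 2 DMSO libraries. Of the 16046 genes tested in proximal tubule, 0.773% were called and 0.499% were called lower. The largest difference among the 38 was that of Isg15 (ENSMUSG00000035692), a ubiquitin-like protein attached to other proteins. It had 97 and 48 UMIs with BPTES against 400 and 203 with DMSO, and its log2 fold change of -2.01 (SE 0.32) missed the threshold with an edgeR adjusted p of 0.052.

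None of the remaining genes was called. Oas3 (9 and 4 against 6 and 5 UMIs) did not pass the low-count filter. Of the 37 genes that passed, 37 had a log2 fold change below 0, as had 50.7% of all genes tested. Their fold changes ran from -2.01 to -0.02 with a median of -0.68, while the median of all genes was -0.01. At an unadjusted p under 0.05, 24 were lower and 0 higher, against 9.27% of all genes lower and 11.9% higher. With predicted doublets kept, 17 reached that p in either direction, as did 19.8% of all genes. The count also moved with the library left out. The 2 BPTES libraries lay below both DMSO libraries for 29 of the 38 genes, as they did for 29% of all genes. DESeq2 called 11 of the 38 genes and 4% of the 23712 genes to which it gave a p.

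By role, the IFIT proteins and the ISG15 system lay lowest, and this order rested on the cluster of 68 cells: without it their median log2 fold changes were -0.61 and -0.59, against -0.80 for the interferon-inducible GTPases and -0.61 for all 37 genes. The 4 IFIT genes summed to 9.17 and 7.96 CPM under BPTES against 21.6 and 13.3 CPM under DMSO, with a median log2 fold change of -1.09. Ifit3 stood at 3.82 and 2.57 CPM against 9.48 and 5.70 CPM, Ifit3b at 1.52 and 1.07 against 3.03 and 1.96 CPM, and neither was called. Ifit2 overlapped between groups, since DMSO replicate 2 (3.57 CPM) lay just below BPTES replicate 2 (3.59 CPM). Usp18, the protease that removes ISG15 and restrains receptor signalling, stood at 0.649 and 0.520 CPM under BPTES against 0.904 and 0.981 CPM under DMSO.

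The transcription factors of the pathway differed among themselves. Irf7, which amplifies interferon production, stood at 2.48 and 1.48 CPM under BPTES against 3.30 and 3.53 CPM under DMSO, a log2 fold change of -0.78 (SE 0.24, edgeR adjusted p = 0.136). Stat2, a subunit of ISGF3, lay at 10.2 and 8.95 against 11.5 and 11.2 CPM. Irf9, the DNA-binding subunit of ISGF3, overlapped between groups at 9.19 and 8.65 against 8.97 and 9.18 CPM, with a log2 fold change of -0.02 (SE 0.10).

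Among the 10 sensors of RNA and DNA, the median log2 fold change was -0.67 over the 9 that passed the filter. Ifih1, the double-stranded RNA sensor MDA5, stood at 10.4 and 10.5 CPM under BPTES against 13.1 and 12.7 CPM under DMSO. Eif2ak2, the RNA-activated kinase PKR, lay at 17.2 and 15.6 against 19.0 and 18.9 CPM. Oas1a and Oas2, synthetases that activate RNase L, overlapped between the groups at no more than 29 UMIs in a library. The 12 antiviral effectors summed to 40.8 and 36.4 CPM under BPTES against 58.6 and 53.8 CPM under DMSO. Rtp4, which binds RNA helicases and chaperones receptors, stood at 1.45 and 0.807 against 2.51 and 2.51 CPM, a log2 fold change of -1.14 (SE 0.26, edgeR adjusted p = 0.093). Parp14, an ADP-ribosyltransferase, stood at 3.33 and 3.39 against 6.51 and 4.95 CPM, a log2 fold change of -0.77 (SE 0.16, edgeR adjusted p = 0.069). Its neighbour on chromosome 16, Parp9, stood at 10.7 and 9.21 against 16.2 and 13.0 CPM, and both genes kept the groups apart.

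The interferon-inducible GTPases, many of which respond to type II interferon, were highest in DMSO replicate 1. Their sum was 44.6 and 37.2 CPM under BPTES against 68.4 and 44.5 CPM under DMSO, so that DMSO replicate 2 lay within the range of the BPTES libraries. Iigp1 stood at 4.47 and 3.10 CPM under BPTES but at 9.24 and 2.51 CPM under DMSO. Ifi47, Igtp and Gbp2 overlapped likewise, while Gbp3 (0.513 and 0.234 against 1.15 and 0.811 CPM), Gbp7 and Irgm1 did not.

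**Figure D2:**
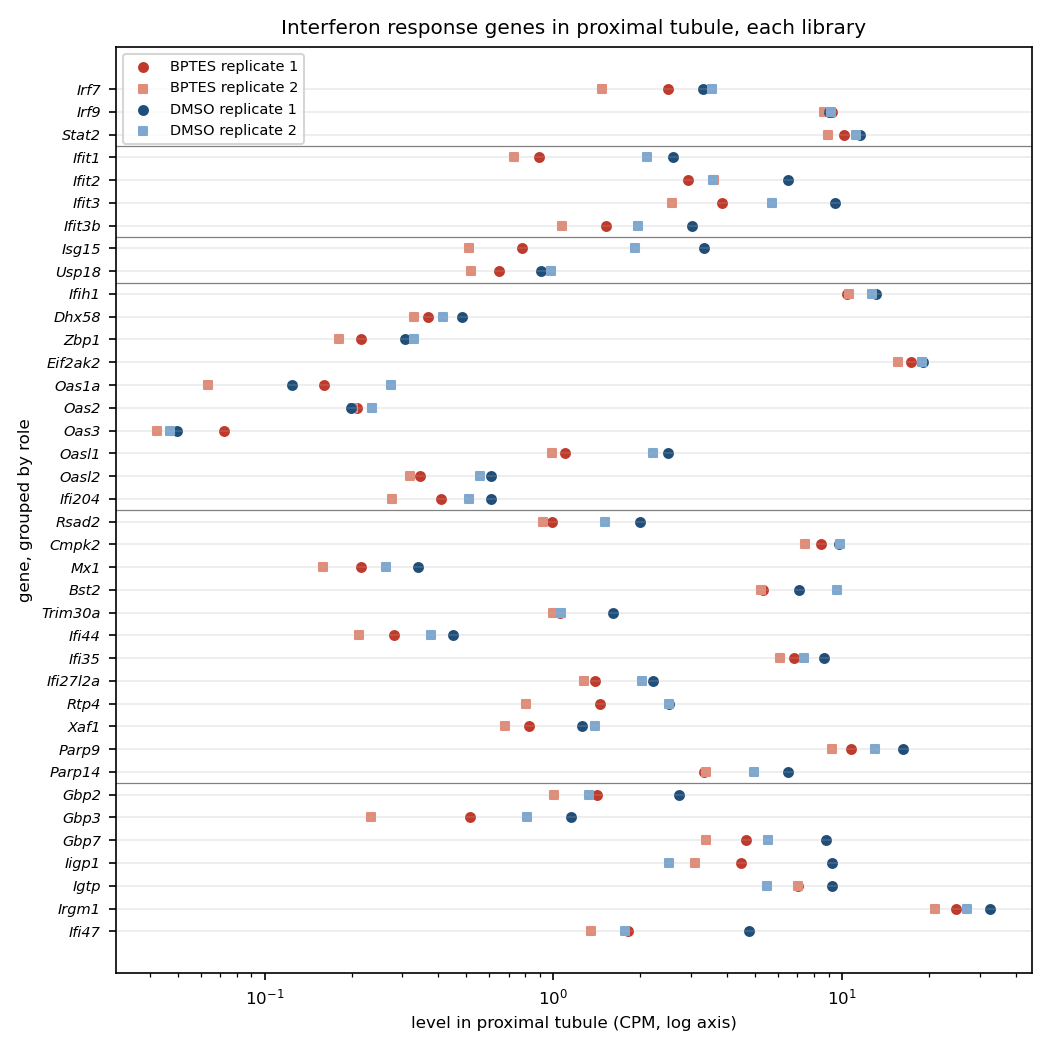
Level in proximal tubule (x axis, CPM, log axis) of each of the 38 genes (y axis), grouped by role with lines between groups; each point is 1 library, BPTES in red and DMSO in blue. For 29 of the 38 genes both red points lie left of both blue points, and for 4 of the 7 GTPases DMSO replicate 2 lies within or below the red points.

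These low levels were spread unevenly over cells. The 400 Isg15 UMIs of DMSO replicate 1 came from 64 of its 5673 proximal tubule cells and the 203 of DMSO replicate 2 from 65 of 4889 cells, while under BPTES they came from 52 of 5719 and 27 of 5440 cells. Ifit1 was seen in 53 and 59 cells under DMSO and in 25 and 22 cells under BPTES. A cluster of 68 proximal tubule cells, led by Ifit3, Ifit3b, Iigp1, Ifit1 and Irgm1, held 14 and 5 cells from BPTES and 30 and 19 from DMSO. These cells were grouped by the expression of these same genes, so their number is a description only. They held 67.7% of all Ifit1 UMIs of proximal tubule, 63.0% of those of Isg15 and 52.4% of those of Ifit3, but 2.64% of those of Parp9 and 1.15% of those of Irf9. Without this cluster no gene was called by edgeR, 19 of 37 had an unadjusted p under 0.05 (21% of all genes did, 0.736% being called) and all 37 tested kept a log2 fold change below 0, with a median of -0.61. Isg15 then had 61 and 46 UMIs with BPTES against 96 and 74 with DMSO, a log2 fold change of -0.62 (SE 0.23, edgeR adjusted p = 0.197). Ifit1 had 20 and 67 UMIs against 72 and 73, a log2 fold change of -0.61 (SE 0.62, edgeR adjusted p = 0.588). Oasl1 stayed at -1.01 (SE 0.21, edgeR adjusted p = 0.075) and Parp14 at -0.76 (SE 0.16, edgeR adjusted p = 0.074). A cluster of 315 proximal tubule cells led by Fgg, C3, Spp1, Havcr1 and Sox9, of which Havcr1 marks injured tubule, also lay mostly in DMSO, with 26 and 19 BPTES cells against 150 and 120. Its summed level of the 38 genes, before TMM scaling, was 346 and 370 CPM under BPTES against 569 and 326 CPM under DMSO. Without it, proximal tubule summed to 149 and 120.4 against 216 and 172 CPM before TMM scaling. These sums are not on the scale of the class sums above. In that fit, added after seeing the data, Ifit1 (edgeR adjusted p = 0.040) and Oasl1 (0.049) were still called. The median log2 fold change was -0.69, and 0.457% of all genes were called.

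At equal depth the groups kept their order. When each proximal tubule cell was thinned to 5000 UMIs, leaving out 522 and 502 shallower BPTES cells and 644 and 421 DMSO cells, a cell held on average 0.708 and 0.581 UMIs of the 38 genes under BPTES against 1.10 and 0.893 under DMSO. At least 5 such UMIs were found in 0.924% and 0.810% of BPTES cells and in 2.53% and 1.57% of DMSO cells. Unthinned, these shares were 21.9% and 12.7% against 25.9% and 25.9%.

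Markers of other cells were low in proximal tubule but moved with the groups in part. The 9 macrophage markers summed to 16.5 and 14.4 CPM under BPTES against 26.6 and 31.9 CPM under DMSO, and none of the 9 was at 0. This was 0.167% and 0.146% against 0.222% and 0.225% of their level in macrophages, whereas the 38 interferon response genes stood at 4.75% and 4.59% against 7.17% and 6.45% of theirs. Endothelial markers summed to 9.49 and 6.38 against 9.34 and 12.6 CPM, 0.0442% to 0.0884% of their endothelial level. Of the 38 genes, 36 stood above the highest endothelial marker and 19 above the highest macrophage marker on this relative scale. Monocyte markers stood at 0.987% and 0.668% under BPTES against 1.29% and 1.02% under DMSO of their monocyte level. Dendritic cell markers stood at 0.111% and 0.115% against 0.142% and 0.133% of theirs. Above the highest monocyte marker stood 22 of the 38 genes, with 4 at or below the median one, and 38 stood above the highest dendritic cell marker. The part of RNA from other cells in the group difference was not tested beyond these values.

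The call counts in proximal tubule depended on single libraries. With BPTES replicate 1, BPTES replicate 2, DMSO replicate 1 or DMSO replicate 2 left out, 6, 0, 8 and 17 of 37 genes were called, where 8.66%, 0.0299%, 5% and 5.28% of all genes were, and the median log2 fold change of the genes tested stayed between -0.86 and -0.54. With predicted doublets kept, 0 genes were called, where 0.425% of all genes were.

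The other tubule classes held far fewer cells. Thick ascending limb, the segment that dilutes the filtrate, summed to 245 and 181 CPM under BPTES against 322 and 305 CPM under DMSO. Distal convoluted tubule stood at 196 and 196 against 242 and 281 CPM, and intercalated cells, which secrete acid or base, at 224 and 212 against 296 and 324 CPM. In the class sums of all of them both BPTES libraries lay below both DMSO libraries, as they did in fibroblasts (1705 and 1496 against 1738 and 1844 CPM), NK cells (1033 and 1176 against 1219 and 1178 CPM) and B cells. DMSO replicate 2 held 174 of the 326 distal convoluted tubule cells, and it held 118 of the 287 cells of the smaller of the 2 thick ascending limb clusters. In the larger one, of 777 cells, the groups overlapped (225 and 147 against 316 and 209 CPM before TMM scaling). The fibroblast values rest on 12 and 16 cells against 34 and 182. Without a cluster of 86 B cell-like cells the B cell sums, before TMM scaling, were 807 and 707 against 769.8 and 1157 CPM, and the groups overlapped. Tests in classes beyond the 8 largest were added after seeing the data. They called 0 of 18 genes tested in thick ascending limb (3 at an unadjusted p under 0.05, where 7.39% of all genes reached that p and 0.224% were called) and 0 of 15 in intercalated cells (5 at an unadjusted p under 0.05, where 8.69% of all genes reached that p and 0.154% were called), and DESeq2 was not run there. Innate lymphoid cells, the other class added, had 0 of 21 genes called and 0 at an unadjusted p under 0.05, where edgeR called 0.353% of all genes and 10.2% reached that p, with a median log2 fold change of 0.0023. Principal cells of the collecting duct stood at 356 and 203 CPM under BPTES against 949 and 457 CPM under DMSO. In DMSO replicate 1, however, 1 of the 83 principal cells held 1411 of the 2111 UMIs (66.8%), while the highest cell of the other 3 libraries held between 4.41% and 10.4%. Of 25 genes tested in principal cells, 1 was called and 9 were lower at an unadjusted p under 0.05, where 12.3% of all genes reached that p in either direction, and the median log2 fold change was -1.49. The gene called there was Oasl2, at 3.32 and 2.23 CPM against 21.1 and 21.3 CPM, which fell by 2.88 on the log2 scale (SE 0.34, edgeR adjusted p = 0.038, where 0.0632% of all genes were called). It was seen in 7 and 4 BPTES cells and in 9 and 19 DMSO cells, and the 1 cell named above held 35 of the 47 Oasl2 UMIs of DMSO replicate 1. Its counts were 10 and 5 UMIs with BPTES against 47 and 63 with DMSO. A gene can pass the low-count filter through 1 group alone, so this call and the median of -1.49 are descriptions only.

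The difference between classes was tested directly. In a model with library as a block, the log2 fold change in macrophages was called above that in proximal tubule for 9 of the 38 genes. Of all 17649 genes, 1.47% were called in either direction and 0.776% in that direction. In endothelium the log2 fold change was called above that in proximal tubule for 8 of 37 genes. Of all 17452 genes, 0.59% were called and 0.407% in that direction. Every one of these 17 differences was positive. Between macrophages and endothelium 0 of 38 genes were called by edgeR, 0.0646% of all genes were, and 6 of the 38 had a positive difference at an unadjusted p under 0.05, as had 6.56% of all genes. Isg15 (difference of -0.52) and Bst2 (-0.36) had a negative difference at that unadjusted p. DESeq2 was not run for these differences. The 2 contrasts with proximal tubule share its libraries and are therefore not independent.

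Isg15 differed by 1.71 (SE 0.25, edgeR adjusted p = 0.027) between macrophages and proximal tubule and by 2.26 (SE 0.26, edgeR adjusted p = 0.011) between endothelium and proximal tubule. In endothelium it stood at 212 and 161 CPM under BPTES against 154 and 149 CPM under DMSO, and in macrophages at 58.9 and 50.4 against 66.9 and 61.8 CPM. Ifit1 differed by 1.70 (SE 0.21, edgeR adjusted p = 0.011) and 1.93 (SE 0.18, edgeR adjusted p = 0.00083). Its endothelial level was 124 and 85.4 CPM under BPTES against 77.7 and 78.0 CPM under DMSO. Ifit3, Rtp4 and Parp14 were also called in both contrasts. Oasl2, Xaf1, a partner of the apoptosis inhibitor XIAP, Parp9 and Irgm1 were called against macrophages, and Oasl1, Bst2 and Gbp3 against endothelium. The difference was not tested in other pairs of classes.

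These counts also moved with the libraries and with the proximal tubule cluster. Without BPTES replicate 1, BPTES replicate 2, DMSO replicate 1 or DMSO replicate 2, 1, 0, 11 and 20 genes were called against macrophages, where 0.246%, 0.0111%, 2.9% and 5.26% of all genes were. Against endothelium the counts were 3, 3, 12 and 15, where 0.965%, 0.347%, 1.79% and 1.62% of all genes were called. Between macrophages and endothelium, leaving out DMSO replicate 1 gave 5 calls (3.44% of all genes) and DMSO replicate 2 gave 2 (1.69%), while leaving out either BPTES library gave 0 (at most 0.0123%). Without the cluster of 68 cells, 5 and 3 genes were called (1.35% and 0.424% of all genes), among them Parp14 and Rtp4 in both contrasts. Isg15 then differed by 0.35 (SE 0.18, edgeR adjusted p = 0.365) against macrophages and by 0.90 (SE 0.20, edgeR adjusted p = 0.089) against endothelium. With doublets kept the counts were 0 and 1, where 0.0166% and 0.0731% of all genes were called.

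**Figure D3:**
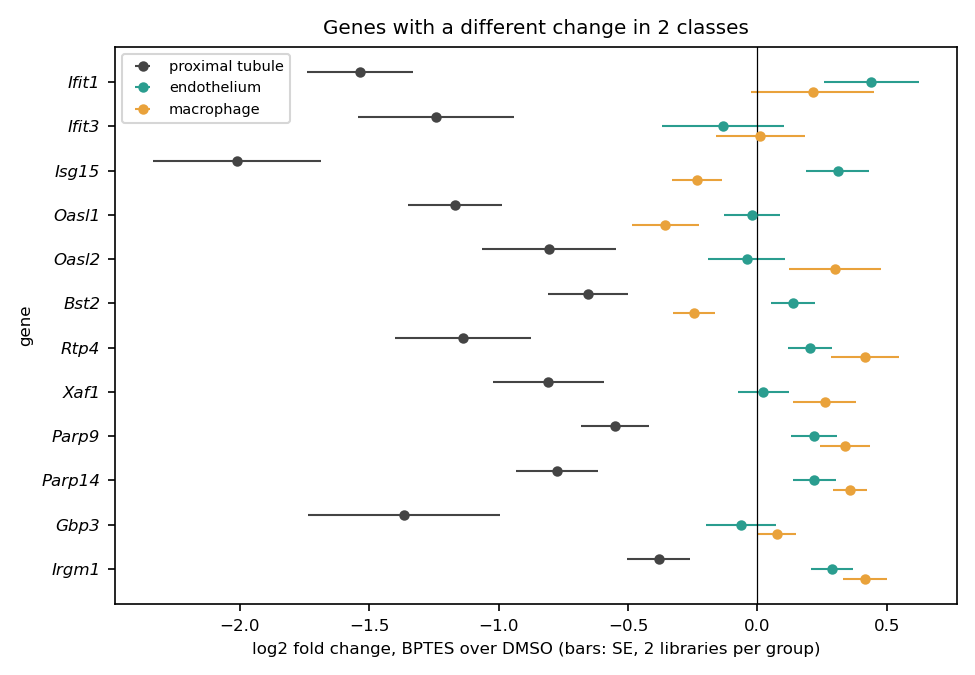
Log2 fold change of BPTES over DMSO (x axis; bars are SE, 2 libraries per group) in proximal tubule, endothelium and macrophages for the 12 genes (y axis) whose treatment effect differed between proximal tubule and at least 1 of the other classes. The proximal tubule points lie left of 0 for all 12 genes, from -2.01 for Isg15 to -0.38 for Irgm1, and those of the other 2 classes lie to the right of them; for Irgm1 the macrophage point (0.41) lies farther from 0 than the proximal tubule point.

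Macrophages had log2 fold changes between -0.41 and 0.41 over the 38 genes. Parp14 rose by 0.36 on the log2 scale (SE 0.07, edgeR adjusted p = 0.049), from 165 and 161 CPM under DMSO to 209 and 208 CPM under BPTES, and the groups did not overlap. It was the single called gene of the 38, where 3.01% of all genes tested were called. Irgm1, a GTPase that controls autophagy and the other GTPases of its family, stood at 47.7 and 45.3 CPM under BPTES against 36.8 and 33.1 CPM under DMSO, with a log2 fold change of 0.41 (SE 0.08, edgeR adjusted p = 0.055). Igtp, of the same family, stood at 38.3 and 42.3 against 33.2 and 28.1 CPM. At an unadjusted p under 0.05, 10 genes were higher and 4 lower, against 11.4% and 14.3% of all genes. Lower among them were Isg15, Oasl1, Bst2 and Gbp2, the last at 25.9 and 32.7 against 37.5 and 39.95 CPM. The median log2 fold change over the 38 was 0.14 and that of all genes 0.00. With 1 library left out, the median of the 38 ranged from 0.03 without BPTES replicate 1 and 0.06 without DMSO replicate 2 to 0.20 without BPTES replicate 2 and 0.24 without DMSO replicate 1. The call of Parp14 did not hold without BPTES replicate 1 (edgeR adjusted p = 0.20), BPTES replicate 2 (0.272) or DMSO replicate 2 (0.066). Without DMSO replicate 1, 7 genes were called, where 5.64% of all genes were.

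Endothelium, despite its high level, had 0 of 37 genes called by edgeR and 0 by DESeq2, where edgeR called 0.826% of all genes. At an unadjusted p under 0.05, 9 were higher and 2 lower, against 5.86% and 5.93% of all genes. The smallest p-values were those of Ifi47, at 86.0 and 78.4 CPM under BPTES against 68.0 and 62.8 CPM under DMSO (edgeR adjusted p = 0.119), of Mx1, with 19 and 7 against 63 and 45 UMIs (edgeR adjusted p = 0.134), and of Irgm1, at 97.3 and 92.0 against 77.7 and 77.5 CPM (edgeR adjusted p = 0.15). In these 3 genes the groups did not overlap. Leaving out BPTES replicate 1 gave 1 call, BPTES replicate 2 gave 2, DMSO replicate 1 gave 3 and DMSO replicate 2 gave 1, where 0.919%, 0.752%, 3.36% and 1.67% of all genes were called.

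In dendritic cells Gbp7, a guanylate-binding protein that acts on pathogen vacuoles, fell by 0.69 on the log2 scale (SE 0.10, edgeR adjusted p = 0.031). It had 16.3 and 16.3 CPM under BPTES against 27.1 and 25.4 CPM under DMSO, and it was the 1 gene called of 38, where 2.20% of all genes were called. The call was lost without BPTES replicate 1 (adjusted p = 0.192 from edgeR), BPTES replicate 2 (0.249) or DMSO replicate 1 (0.054) and at a finer clustering (0.15). Dendritic cells held a cluster led by Cd209a and one led by Xcr1 and Clec9a, and the latter held 109 of 293 and 110 of 275 BPTES cells against 84 of 471 and 111 of 369 DMSO cells. In fits of each cluster alone, added after seeing the data, Gbp7 had a log2 fold change of -0.54 (SE 0.12, edgeR adjusted p = 0.096) in the first and 0.0089 (SE 0.31) in the second, and 0 of the 38 genes were called in either, where 0.521% and 0% of all genes were. Trim30a, a ubiquitin ligase, stood at 189 and 185 against 161 and 150 CPM (edgeR adjusted p = 0.090). Of the IFIT genes, Ifit1 kept the groups apart (9.54 and 8.37 against 26.1 and 12.6 CPM) and the other 3 overlapped, with DMSO replicate 1 highest in each, as for Ifit2 at 40.7 and 35.5 against 106 and 38.9 CPM. Without DMSO replicate 2, 6 genes were called in dendritic cells, where 4.1% of all genes were.

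Monocytes had 0 of 38 genes called by edgeR and 0 by DESeq2, with 7 at an unadjusted p under 0.05, where edgeR called 1.21% of all genes and 22.1% reached that unadjusted p. Without BPTES replicate 1 or without DMSO replicate 1, 1 gene was called in monocytes, where 0.657% and 2.25% of all genes were. Bst2 in monocytes stood at 139 and 112 against 181 and 176 CPM (edgeR adjusted p = 0.086), yet its log2 fold change of -0.51 became 0.13 when cells were clustered more finely and 0.19 when they were clustered without interferon genes. Gbp7 in monocytes stood at 24.9 and 22.5 against 32.2 and 33.5 CPM (edgeR adjusted p = 0.102), so that its groups did not overlap. The monocyte class joined a cluster with 3055 CPM of the 38 genes, before TMM scaling, and one with 1143 CPM. The first held 214 of 458 and 198 of 390 BPTES cells against 311 of 493 and 106 of 193 DMSO cells. The part of this mix in the monocyte values was not tested. T cells had 0 of 38 genes called by either tool and 4 at an unadjusted p under 0.05, and neutrophils had 0 of 36 by edgeR, 0 of 38 by DESeq2 and 1 at an unadjusted p under 0.05. In both classes edgeR called 0% of all genes and DESeq2 0.335% and 0.273%, and 11.9% of all genes in T cells and 8.56% in neutrophils had an unadjusted p under 0.05. The counts of the 38 genes at that p moved with the library left out in both classes. Igtp in T cells stood at 90.1 and 88.4 against 65.8 and 68.7 CPM, with a log2 fold change of 0.41 (SE 0.08, edgeR adjusted p = 0.391), and Irgm1 at 61.2 and 62.7 against 51.4 and 50.5 CPM, each with both BPTES libraries above. Zbp1, a sensor of Z-form nucleic acid that can trigger necroptosis, lay at 28.3 and 25.9 against 39.3 and 41.2 CPM in neutrophils (edgeR adjusted p = 0.544). Cmpk2, a mitochondrial nucleotide kinase, lay there at 34.7 and 29.5 against 24.9 and 12.3 CPM (edgeR adjusted p = 0.590), and Irf9 at 65.2 and 49.8 against 47.5 and 37.0 CPM (edgeR adjusted p = 0.652). The smaller cluster of the neutrophil class held 48 of 256 and 40 of 244 BPTES cells against 17 of 244 and 29 of 322 DMSO cells. Its part in these values was not tested. Without DMSO replicate 1, 2 genes were called in T cells (2.38% of all genes) and 6 in neutrophils (8.64% of all genes), and without DMSO replicate 2, 2 in T cells (5.3% of all genes).

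**Figure D4:**
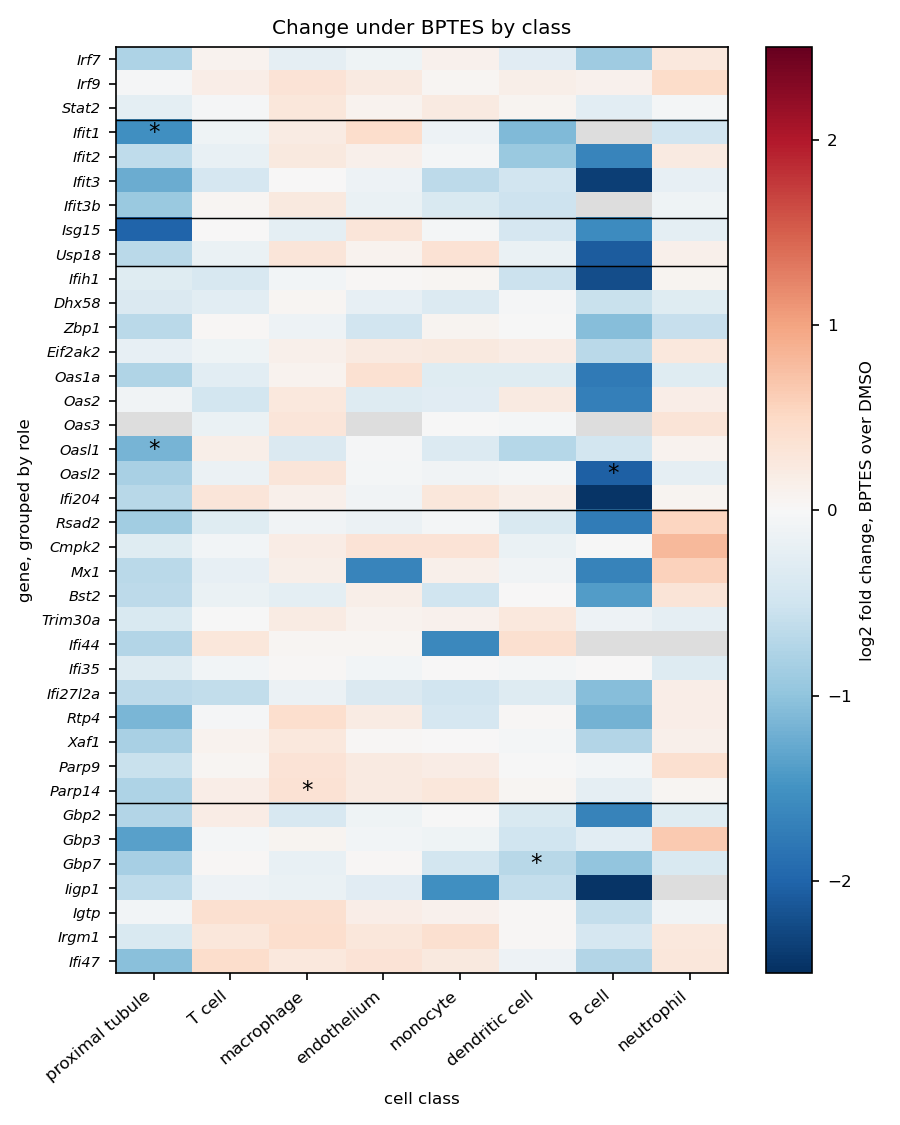
Log2 fold change of BPTES over DMSO (colour) for the 38 genes (rows, grouped by role with lines between groups) in 8 classes (columns); grey marks genes that did not pass the low-count filter and an asterisk an edgeR adjusted p of at most 0.05. The proximal tubule column is blue in all 37 tested genes, the B cell column in 32 of 34, and the 5 asterisks mark Ifit1 and Oasl1 in proximal tubule, Oasl2 in B cells, Gbp7 in dendritic cells and Parp14 in macrophages.

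B cells had a median log2 fold change of -1.03 over the 34 genes that passed the filter, but this moved with 1 library and with 1 cluster. Oasl2, another oligoadenylate synthetase-like protein, had 25 and 18 UMIs with BPTES against 69 and 155 with DMSO, and it fell by 2.04 on the log2 scale (SE 0.31, edgeR adjusted p = 0.044). It was the 1 gene called, where 0.439% of all genes were called. The call was lost with doublets kept (0.121% of all genes called) and when cells were clustered without interferon genes (0.247%). Of the 34 genes, 32 had a log2 fold change below 0, as had 51.2% of all genes. Ifi204, a DNA-binding protein of myeloid cells, had 36 and 13 UMIs against 103 and 231 UMIs (edgeR adjusted p = 0.060), and Ifit3 had 12 and 12 against 34 and 129 UMIs (edgeR adjusted p = 0.123). The 9 macrophage markers summed in B cells, before TMM scaling, to 779 and 424 CPM under BPTES against 1852 and 5363 CPM under DMSO, and none of the 9 was at 0. A cluster of 86 cells named B cell-like held 6 and 4 cells from BPTES and 20 and 56 from DMSO. Within this cluster the macrophage markers summed to 10736 and 7233 CPM under BPTES against 9353 and 11702 CPM under DMSO. Values of the class that include this cluster are therefore not those of B cells alone. It held 63.8% of the UMIs of the 38 genes in the B cells of DMSO replicate 2 and 94.0% of all Ifi204 UMIs of the class. Without it the macrophage markers stood at 59.4 and 56.5 against 84.8 and 188 CPM. No gene was then called by edgeR of 29 tested (8 at an unadjusted p under 0.05), where 0.0198% of all genes were called and 11% reached that unadjusted p, the median log2 fold change was -0.36, and Oasl2 had 14 and 10 UMIs against 14 and 23. Leaving out DMSO replicate 1 gave 26 calls, where 11.3% of all genes were called, and DMSO replicate 2 gave 2, where 1.53% were. Leaving out either BPTES library gave 0, where at most 0.017% of all genes were called.

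**Figure D5:**
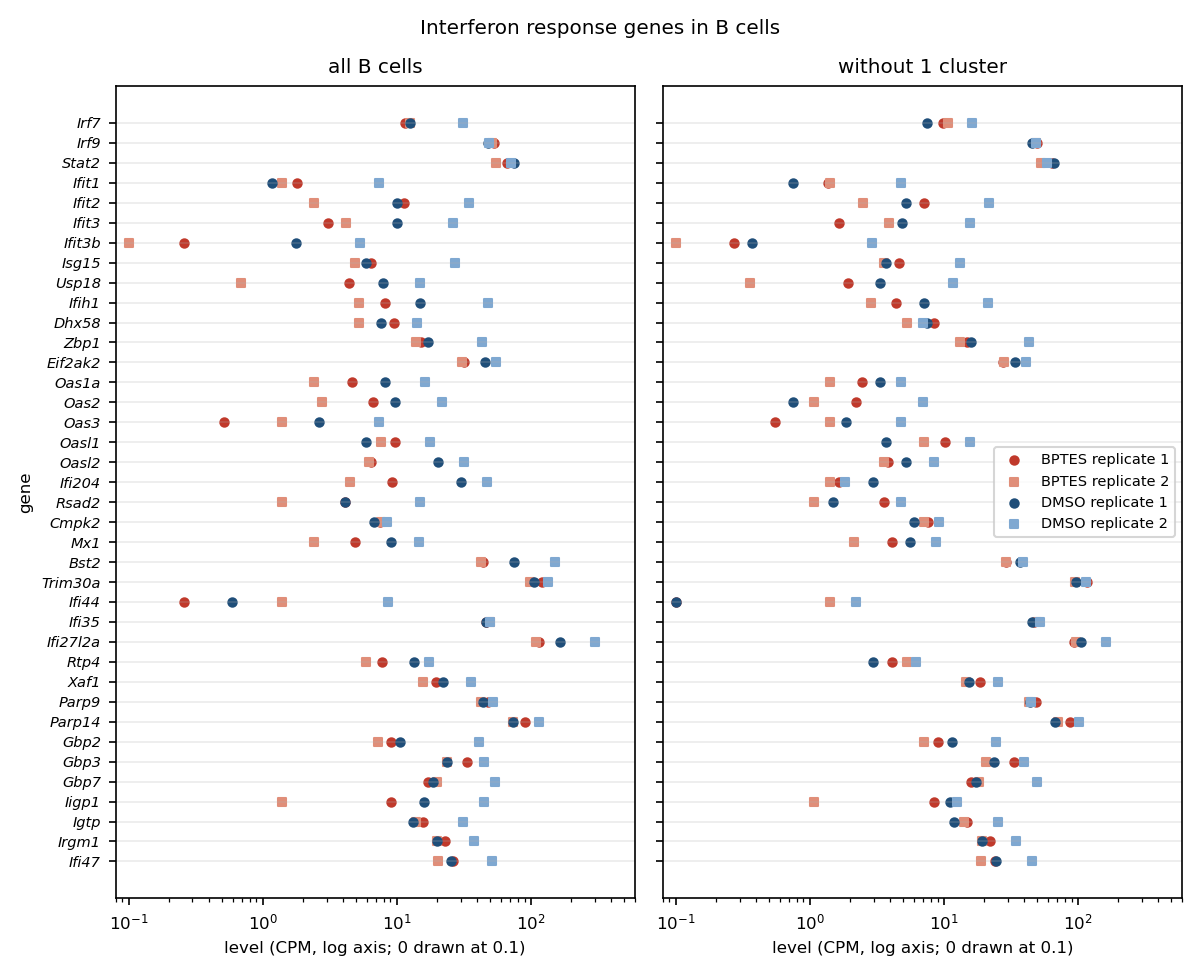
Level of the 38 genes (y axis) in B cells (x axis, CPM, log axis, values of 0 drawn at 0.1), over all B cells on the left and without the cluster of 86 cells on the right; each point is 1 library. DMSO replicate 2 lies rightmost for most genes on the left, and Ifi204 moves from 47.4 CPM in that library to 1.84 CPM on the right. Levels on the right are before TMM scaling.

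The 5 genes with the highest mean UMI level over the 8 classes were Ifi27l2a, Rsad2, Bst2, Trim30a and Parp14, and they are given here in each class; levels are not compared between genes. Ifi27l2a, a mitochondrial and nuclear membrane protein, was highest in monocytes (451 and 438 CPM under BPTES, 523 and 718 under DMSO) and macrophages (464 and 410 against 518 and 451). It stood at 317 and 152 against 215 and 203 CPM in neutrophils and at 256 and 206 against 272 and 306 CPM in dendritic cells. In T cells it lay at 176 and 144 against 206 and 287 CPM, in B cells at 115 and 110 against 166 and 305, in endothelium at 106 and 66.7 against 119 and 107 and in proximal tubule at 1.39 and 1.27 against 2.21 and 2.02. Its BPTES libraries lay below both DMSO libraries in 6 of the 8 classes, the exceptions being macrophages and neutrophils, and it was called in none of the 8 by edgeR.

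Rsad2 stood at 1262 and 853 CPM under BPTES against 1242 and 1118 CPM under DMSO in endothelium, and at 175 and 137 against 155 and 62.9 CPM in neutrophils. It lay at 44.7 and 31.9 against 43.3 and 38.02 CPM in macrophages, at 38.9 and 13.4 against 55.9 and 12.3 in dendritic cells and at 29.2 and 18.5 against 30.4 and 17.7 in monocytes. T cells had 19.7 and 13.5 against 19.6 and 21.2 CPM, B cells 4.13 and 1.39 against 4.12 and 14.97, and proximal tubule 0.986 and 0.924 against 2.00 and 1.51. Its groups overlapped in 7 of the 8 classes and not in proximal tubule. There its level was 0.121% of that in endothelium and 3.43% of that in macrophages. On the same scale it lay under the highest endothelial marker (0.163%) and the highest macrophage marker (3.66%). It lay above the median marker of each (0.0679% and 0.177%).

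Bst2 in endothelium lay at 601 and 536 CPM under BPTES against 502 and 532 CPM under DMSO, in macrophages at 256 and 240 against 281 and 307 and in dendritic cells at 173 and 161 against 161 and 169. T cells had 80.8 and 67.8 against 76.4 and 91.4 CPM, B cells 44.4 and 42.5 against 75.6 and 151, neutrophils 48.9 and 19.9997 against 26.9 and 28.9 and proximal tubule 5.33 and 5.23 against 7.07 and 9.58. Endothelium was thus the class with both BPTES libraries above both DMSO libraries, whereas macrophages, monocytes, B cells and proximal tubule had both below.

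Trim30a was more even over leukocytes, at 232 and 231 against 319 and 223 CPM in neutrophils, 210 and 210 against 189 and 175 in macrophages, 179 and 154 against 161 and 149 in monocytes and 150 and 152 against 144 and 160 in T cells. It lay at 208 and 190 against 191 and 182 CPM in endothelium, 121 and 98.8 against 107 and 135 in B cells and 1.05 and 0.998 against 1.61 and 1.07 in proximal tubule. Parp14 lay at 256 and 226 against 209 and 206 CPM in endothelium, 167 and 140 against 134 and 117 in monocytes and 133 and 137 against 110 and 129 in T cells, with both BPTES libraries above both DMSO libraries in each. It overlapped in dendritic cells (97.2 and 95.9 against 102 and 84.9), B cells (90.3 and 73.8 against 74.5 and 116) and neutrophils (81.5 and 48.5 against 68.1 and 58.9).

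Over the whole CD45-negative sum, 0 of 37 genes were called by edgeR and 5 had an unadjusted p under 0.05, where 0% of all genes were called and 12.5% reached that unadjusted p. The count of 5 moved strongly with the library left out. DESeq2 called 1 gene (2.02% of all genes), and edgeR called 2 without DMSO replicate 1 (9.71% of all genes). The sum of the 38 genes stood at 678 and 444 CPM under BPTES against 663 and 802 CPM under DMSO. The share of endothelium, the class with the highest level, among these cells was 13.8% and 9.09% with BPTES against 12.3% and 16.4% with DMSO. Both the share and the sum were highest in DMSO replicate 2 and lowest in BPTES replicate 2, and its part in the result was not tested. The CD45-positive sum stood at 2159 and 1929 against 2262 and 2126 CPM, with 0 of 38 genes called by edgeR, 9 at an unadjusted p under 0.05, and 4 by DESeq2 (9.89% of all genes), where edgeR called 5.98% of all genes and 29.6% reached that unadjusted p. Without DMSO replicate 2, 1 gene was called, where 4.17% of all genes were. Plasma cells, which summed to between 585 and 754 CPM over the 38 genes, were 6.34% and 5.47% of the CD45-positive cells with BPTES against 0.755% and 0.819% with DMSO. Without them 0 genes were called by edgeR and 10 had an unadjusted p under 0.05, where 5.34% of all genes were called and 28.5% reached that p. In both sums fewer cells of a type and less RNA per cell cannot be told apart.

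The other genes of the pathway, 103 in 6 lists, gave few calls. Of the ligands, Ifng, the type II interferon, had 2568 and 2338 UMIs with BPTES against 2750 and 3049 with DMSO, 6809 of these 10705 in T cells. In T cells it stood at 148 and 167 against 135 and 152 CPM, and the groups overlapped. In NK cells, with 45 cells in DMSO replicate 2, it stood at 198 and 208 against 267 and 368 CPM, both BPTES libraries below both DMSO libraries, and no test was made. Ifnb1 had 24 UMIs in all, 12 of them in macrophages, and Ifna1, Ifna2, Ifna4, Ifna5, Ifne and Ifnl3 had 0. In proximal tubule 0 of 90 pathway genes tested were called by edgeR, which called 0.773% of all genes. DESeq2 called 11 of 94, all lower, and 4% of all genes, and the edgeR count moved with the library left out. The receptor subunits Ifnar1 (17.3 and 21.2 against 16.6 and 17.5 CPM) and Ifngr1 (22.8 and 25.2 against 23.7 and 23.9 CPM) overlapped there, while Ifngr2 (12.7 and 12.1 against 16.1 and 14.7 CPM) was lower in both BPTES libraries (log2 fold change -0.31, SE 0.09, edgeR adjusted p = 0.130). Of the 42 other interferon-stimulated genes tested there, 34 had a log2 fold change below 0 (median -0.24), as had 15 of 15 antigen presentation genes that respond to type II interferon (median -0.69), with 9 of each list lower at an unadjusted p under 0.05. Of all genes tested there, 50.7% lay below 0 and 9.27% were lower at that p. With predicted doublets kept, 23 of 43 and 14 of 15 lay below 0, with medians of -0.04 and -0.45. With 1 library left out, the medians lay between -0.26 and -0.20 and between -0.81 and -0.55. The counts at an unadjusted p under 0.05 moved with the library left out. The macrophage markers given above for proximal tubule were also lower in both BPTES libraries, and their part in these counts was not tested.

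In macrophages 7 of 92 pathway genes were called higher and 1 lower, where 0.904% of all genes were called higher and 2.11% lower. Those with the smallest p were Herc6, a ligase that attaches ISG15, at 111 and 119 CPM under BPTES against 82.9 and 80.9 CPM under DMSO, Irgm2 (35.6 and 36.5 against 25.8 and 24.4 CPM), Nlrc5, the activator of class I antigen presentation genes (170 and 179 against 130 and 127 CPM), Sp100, a nuclear body protein (367 and 340 against 266 and 263 CPM), and, in the other direction, the chemokine Cxcl10 (68.2 and 67.2 against 108 and 89.6 CPM). Their log2 fold changes were 0.49, 0.52, 0.44, 0.42 and -0.54, with edgeR adjusted p between 0.034 and 0.048. None of the 8 calls held without BPTES replicate 1, without BPTES replicate 2 or with the replicate block, and 3 of the 8 held without DMSO replicate 2. In endothelium Tmem173, which encodes the DNA-sensing adaptor STING, fell by 0.84 on the log2 scale (SE 0.14, edgeR adjusted p = 0.020), from 22.4 and 24.1 CPM under DMSO to 12.0 and 14.3 CPM under BPTES, the 1 call among 89 pathway genes, where 0.826% of all genes were called. This call was lost without BPTES replicate 1, with the replicate block and with doublets kept. In monocytes the membrane protein Ifitm1 was the 1 call of 91, where 1.21% of all genes were called, and fell by 0.99 on the log2 scale (SE 0.16, edgeR adjusted p = 0.042), a call lost without either BPTES library, with the replicate block, with doublets kept and under both other clusterings. In dendritic cells 3 of 92 were called, where 2.2% of all genes were: Samd9l rose by 0.56 (SE 0.08, edgeR adjusted p = 0.030), Jak2, a kinase of the type II receptor, fell by 0.47 (SE 0.08, edgeR adjusted p = 0.035) and Ifitm2 fell by 0.43 (SE 0.08, edgeR adjusted p = 0.041). None of these 3 calls held without BPTES replicate 1, without BPTES replicate 2 or within either dendritic cell cluster alone. T cells, B cells and neutrophils had 0 pathway genes called by edgeR, and 0, 5 and 1 by DESeq2, which called 0.335%, 2.04% and 0.273% of all genes. Without DMSO replicate 1 edgeR called 3, 32 and 10 there, where 2.38%, 11.3% and 8.64% of all genes were called.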

How the data were processed

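Single-cell RNA was measured in 4 kidney libraries, 2 per group, and grouped by the treatment in the labels. The authors deposited unnormalized UMI counts for every gene in each barcode, made with Cell Ranger 8.0.1 on build mm10 per the submitters' processing notes; the annotation and read assignment are not given in the sources used here. From these counts, barcodes with under 500 UMIs, under 300 genes or over 50% mitochondrial UMIs (30.9% to 34.2% per library) were left out. Doublets were scored as in Scrublet (30 components) and removed at a fixed rate of 0.4% per 1000 barcodes. This took out 1040 and 837 barcodes from the BPTES libraries and 1055 and 935 from the DMSO libraries. Scrublet's own threshold called fewer, 190 and 122 against 163 and 202. The remaining 46738 of 76278 barcodes were clustered with Python 3.11.15, scanpy 1.11.5 and igraph 0.11.9 (3000 variable genes, 40 principal components, 15 neighbours, Leiden resolution 1), and 40 of 50 clusters were named from 158 marker genes of 25 types. Unnamed clusters entered no comparison.

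Sums of UMI counts were formed for each library within a class with at least 50 cells in each library, filtered with filterByExpr, scaled by TMM and tested across all genes with edgeR 4.0.16 (R 4.3.3; robust quasi-likelihood test, Benjamini-Hochberg adjustment, threshold 0.05). Differences between classes were tested as class by treatment terms with library as a block. Standard errors are the log2 fold change divided by the root of the F statistic. The steps were tested on simulated data. For the fits within a class, only genes at higher levels than the 38 genes reach in proximal tubule were changed, so those low levels were not covered. Full statistics were given for called genes whose mean log2 CPM was 2 or more and, as fewer than 10 were, for up to 3 per class with the smallest p. The 5 genes with the highest mean level were given in every class, and pathway genes were named where called, at most 5 per class. The 38 genes and all lists were chosen with earlier results of these data known. Alternatives were DESeq2 1.42.0, RLE scaling, no low-count filter, a replicate block, leaving out each library, 25% mitochondrial UMIs, doublets kept, resolution 2 and clustering without interferon genes. When 1 library was dropped, its remaining partner was assumed to vary like the other group. With 2 libraries per group the precision rests on a spread shared over genes.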

Additional observations from a re-analysis of the deposited data

Results flagged for a closer look

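The treatment effect differed between cell classes for the following genes by the interaction test in edgeR, as the log2 fold change in the first class minus that in proximal tubule. In macrophages the log2 fold change lay above that in proximal tubule by 1.71 for Isg15, 1.70 for Ifit1, 1.54 for Rtp4 and 1.20 for Ifit3. This difference was 1.08 for Parp14, 1.08 for Oasl2, 1.04 for Xaf1, 0.85 for Parp9 and 0.76 for Irgm1. In endothelium the log2 fold change lay above that in proximal tubule by 2.26 for Isg15, 1.93 for Ifit1, 1.32 for Rtp4 and 1.27 for Gbp3. This difference was 1.10 for Oasl1, 1.03 for Ifit3, 0.95 for Parp14 and 0.75 for Bst2. Groups of 2 libraries are too small for a test of single deviating samples.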

How the results depend on the processing

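Counts of called genes moved with the processing, and the cause was not tested. In proximal tubule the count of 2 became 11 with DESeq2 (4% of all genes) and 20 with no low-count filter (9.13% of all genes). It became 1 at 25% mitochondrial UMIs (0.605% of all genes) and 0 with doublets kept (0.425%). In macrophages the count of 1 became 2 with DESeq2, 6 with no filter and 3 with doublets kept, where 4.26%, 6.74% and 4.9% of all genes were called. With no filter it became 6 in endothelium (3.27% of all genes), 4 in monocytes (8.13%) and 21 in B cells (5.93%). With DESeq2 it became 2 in dendritic cells (2.45% of all genes), 6 in B cells (2.04%), 1 in the CD45-negative (2.02%) and 4 in the CD45-positive sum (9.89%). With doublets kept it was 1 in monocytes (7% of all genes), 0 in B cells (0.121%), and 0 and 1 for the differences of macrophages and of endothelium from proximal tubule. It was 0 in dendritic cells at resolution 2 (1.95% of all genes) and 0 in B cells clustered without interferon genes (0.247%). Alternatives chosen after seeing the data left out the cluster highest in these genes, which gave 0 in proximal tubule, 0 in B cells and 5 and 3 for the 2 differences. Leaving out the Havcr1 cluster as well also gave 0 in proximal tubule (0.457% of all genes). Leaving out the Havcr1 cluster alone gave 2 (0.457%), and 9 and 6 for the 2 differences (1.31% and 0.275% of all genes). Each dendritic cell cluster alone gave 0.

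With the replicate block the count was 21 in proximal tubule, 0 in macrophages and 3 in B cells, where 17.7%, 0.0209% and 3.73% of all genes were called. Replicate numbers are shared in the labels only, and deviations of same-numbered libraries correlated between -0.13 and 0.19. A block with crossed numbers, also chosen after seeing the data, gave 3 calls in macrophages and 12 in B cells, where 9.03% and 4.95% of all genes were called.

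Leaving out 1 library gave 0 to 17 calls in proximal tubule, 0 to 2 in T cells, 0 to 7 in macrophages, 1 to 3 in endothelium, 0 to 1 in monocytes, 0 to 6 in dendritic cells, 0 to 26 in B cells, 0 to 6 in neutrophils, 0 to 2 in the CD45-negative and 0 to 1 in the CD45-positive sum. For differences from proximal tubule it gave 0 to 20 in macrophages and 3 to 15 in endothelium, and 0 to 5 between these classes. Over 314 settings of 24 named genes in a class, 252 kept direction and side of the threshold, 36 gained a call, 23 lost one and 3 reversed. Bst2 in monocytes reversed, to 0.13 at resolution 2 and 0.19 when clustered without interferon genes, and Gbp7 in dendritic cells to 0.0089 in the Xcr1 cluster alone. Of 136 settings of the 17 differences between classes, 56 lost the call. The median log2 fold change stayed between -0.86 and -0.52 in proximal tubule, -1.55 and -0.31 in B cells and 0.03 and 0.24 in macrophages over the alternatives run. It changed sign in T cells (-0.24 to 0.13), endothelium (-0.13 to 0.15), monocytes (-0.23 to 0.14), dendritic cells (-0.28 to 0.19) and neutrophils (-0.21 to 0.43).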
